A study of Rattus norvegicus with 6 samples.

Results

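The members described here are 109 genes of cyclic AMP (cAMP) and heterotrimeric G protein signalling, out of 18625 named genes measured in rat pancreatic islets after birth and before it. They were taken by symbol from 9 families: 7 adenylyl cyclases (Adcy), 24 genes named as phosphodiesterases (Pde), 6 subunits of protein kinase A (Prkac and Prkar), 5 exchange factors of Rap GTPases (Rapgef), 16 A-kinase anchoring proteins (Akap), 15 G protein alpha subunits (Gna), 5 beta subunits (Gnb), 11 gamma subunits (Gng) and 20 regulators of G protein signalling (Rgs) without Rgs5. The rule reads the symbol and no measured value. Adcy6, Rapgef3 and Gnai1 are not analysed here.

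RNA sequencing of total RNA was done on freshly isolated islets, clusters of endocrine cells scattered through the pancreas, with 3 libraries of postnatal rats and 3 of fetuses at embryonic day 19. Each postnatal title reads 2 weeks, but the age field reads week 2 for replicate 1, week 3 for replicate 2 and week 4 for replicate 3. No strain, treatment or sex is given in the labels, and whether each library had animals of its own is not stated. The p-values therefore reflect the spread among these libraries alone, which may be technical. The comparison asks how islet gene expression after birth differs from that of late fetal life.

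A hormone or neurotransmitter receptor in the cell membrane activates a G protein made of an alpha, a beta and a gamma subunit. The stimulatory alpha subunit switches on adenylyl cyclases, which make cAMP from ATP, and the inhibitory class switches them off. Cyclic AMP acts through protein kinase A and the Epac exchange factors, anchoring proteins place the kinase at its targets, phosphodiesterases break cAMP down, and RGS proteins end the signal by speeding the alpha subunit's hydrolysis of GTP. In beta cells this pathway is known for amplifying glucose-induced insulin release, as when the incretin hormones act on their receptors, and for restraining it when adrenaline or somatostatin act on theirs.

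Values are scaled CPM, reads scaled to a library size that was adjusted between libraries, and are given for replicates 1, 2 and 3 in that order. The reads behind them were 28.2 to 29.5 M in the postnatal and 26.1 to 37.8 M in the fetal libraries, and 3 reads were worth 0.102 to 0.152 scaled CPM in the postnatal and 0.0726 to 0.0925 in the fetal libraries. Islet and exocrine markers both moved with age. The 8 beta cell markers took 2.62% to 6.64% of the reads in postnatal and 0.182% to 0.487% in fetal libraries, and 7 of them rose. The 12 acinar markers, genes of the exocrine cells that make digestive enzymes, took 16.9% to 33.6% and 5.65% to 7.48%, with the highest share in postnatal replicate 1, and 8 rose while 1 fell. Mesenchymal markers (6 of 7 rose), endothelial markers (6 of 6 rose) and smooth muscle markers (3 of 4 rose) moved the same way, and 4 of 5 erythroid markers fell. Liver transcripts stood out in fetal replicate 2, at a summed 6330 scaled CPM against 199.7 and 269.9 in fetal replicates 1 and 3. In such bulk samples a larger number of cells of a type cannot be told apart from more RNA per cell, and the part of these cell types in the results below was not tested.

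Of the 109 members, 94 reached 1 scaled CPM in 3 or more libraries and were tested, and 15 were below that filter. Of the 94, 49 rose and 15 fell in postnatal islets (limma on log2(value + 1), Benjamini-Hochberg adjusted p under 0.05 over all 12926 genes tested), together 68.1% of the members beside 63.1% of all genes. That is 52.1% higher and 15.96% lower among the members, beside 30.0% higher and 33.1% lower among all genes tested. A rise of at least 2-fold on this scale was present in 30 members, or 31.9%, against a background of 14.8%, whereas a fall of that size was present in 1, Gnal, against a background of 12.1%. The median log2 fold change was 0.50 over the members tested and -0.03 over all genes tested. The 3 postnatal values lay above all fetal values in 51 of the 94 members (background 33.1%) and below them in 19 (background 36.9%), so that the groups did not overlap in 74.5% of members, beside 70.0% of all genes.

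The direction of small changes depended on the scaling of the libraries. With library sizes recomputed without the 20 highest genes, the all-gene median was 0.20, and the members' median was 0.69, so that it stood 0.50 above all genes, against 0.53 as deposited. With that scaling 56 members rose and 9 fell, beside 39.0% and 24.9% of all genes. Without postnatal replicate 1 and fetal replicate 2 together, 52 members rose and 12 fell (backgrounds 29.3% and 31.6%). The counts were 50 and 13 with edgeR (backgrounds 31.4% and 31.5%) and 51 and 14 with DESeq2 (backgrounds 32.6% and 32.2%) on the recovered reads. Without fetal replicate 3, 45 members rose and 9 fell (backgrounds 25.2% and 28.1%). A pseudocount of 5 gave smaller changes to low genes, with log2 fold changes of 1.60 for Akap6, 1.34 for Rgs7, 1.23 for Pde10a, 1.12 for Pde1b, 1.07 for Pde7b, 0.75 for Rgs6, 0.72 for Rgs9, 0.61 for Rgs8, 0.57 for Gng4, 0.34 for Adcy8 and -0.80 for Gnal.

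**Figure D1:**
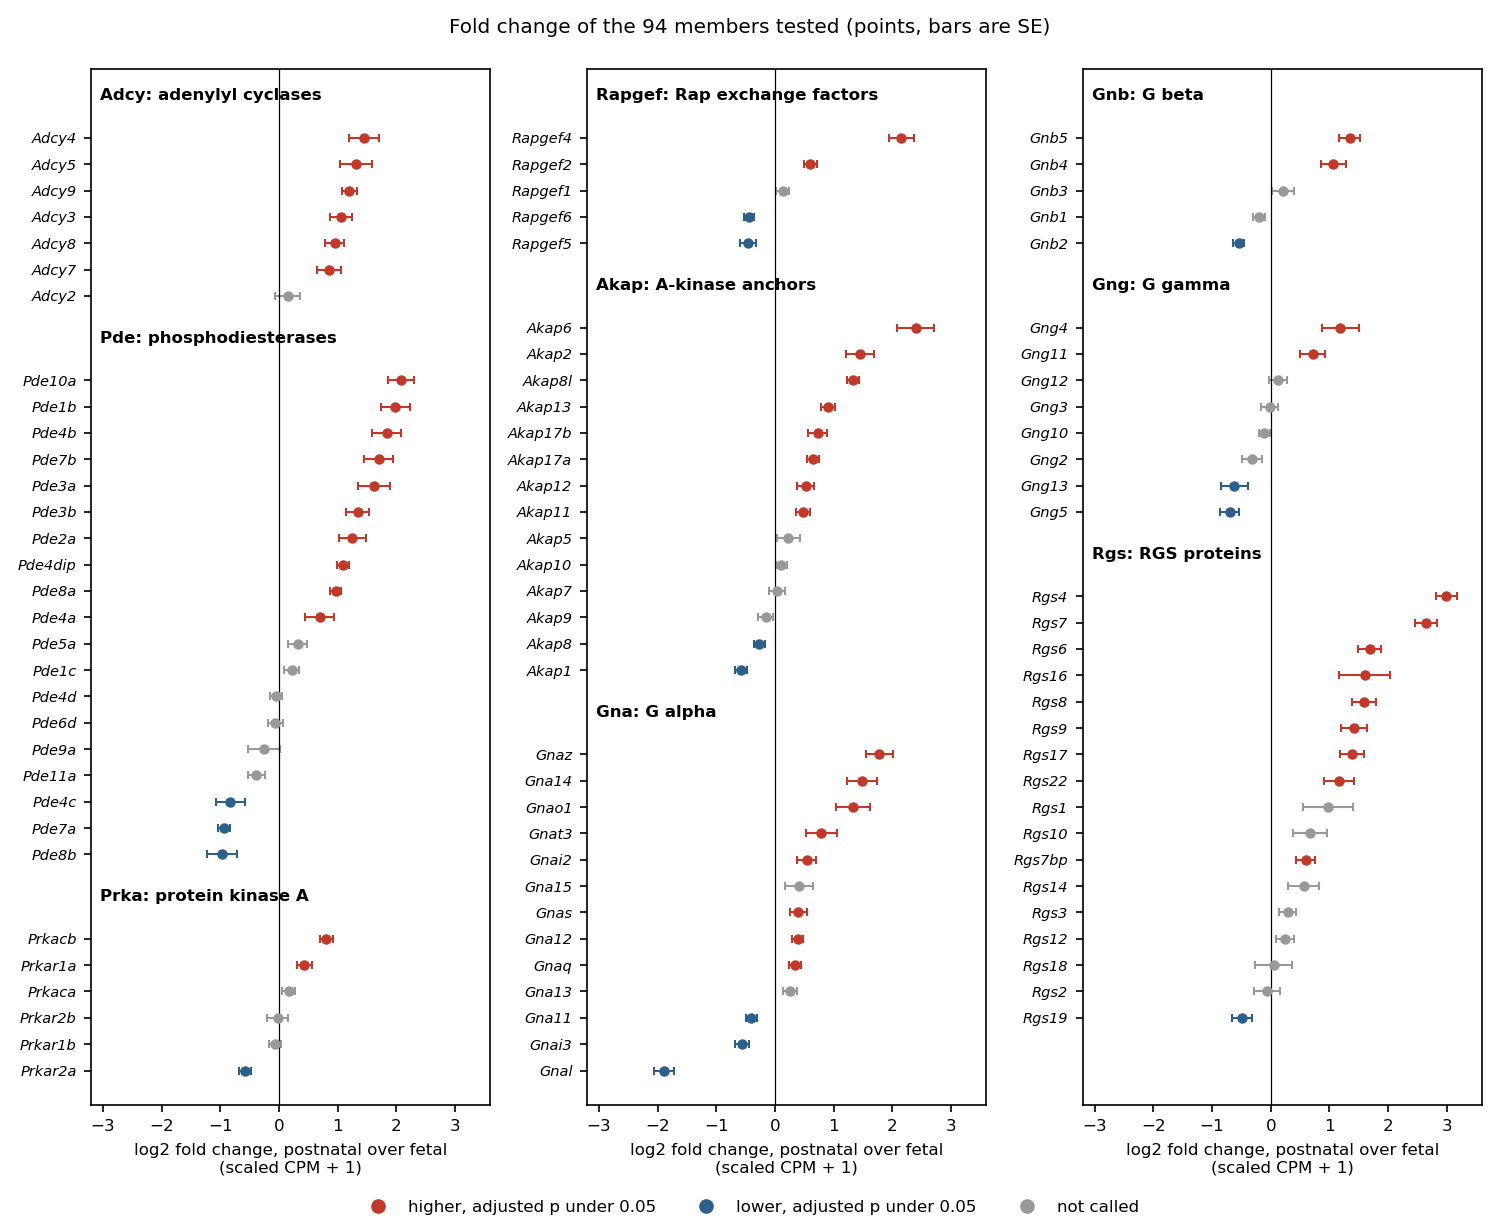
Log2 fold change of the 94 tested members, postnatal over fetal, on the scale of scaled CPM + 1 (x axis), grouped by family, with points for the estimate and bars for its SE. Most points lie right of 0, from 2.99 for Rgs4 down to -1.89 for Gnal, and the family medians are highest for Adcy (1.06) and Rgs (0.97).

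The cAMP response element is the sequence bound by CREB, the transcription factor that protein kinase A activates. It was searched for in the 250 bases before the annotated start of each gene (RefSeq, assembly GRCr8, which need not be the build the reads were mapped to), as the whole element TGACGTCA, which reads the same on both strands, and as its short form, TGACG or CGTCA, which the whole element contains. A promoter was found by symbol for 85 members. The whole element was in 2 of them, or 2.35%, against 1.59% of 33469 promoters, and a short form in 17, or 20%, against 18.2%. The 33469 are all promoters of the annotation, not limited to genes measured here or to 1 per gene, whereas each member had 1. Both members with the whole element, Gnao1 and Akap17a, rose, as did 40 of the 85 members with a promoter. Among members called with at least a 2-fold change, Gnao1, Gng4 and Pde10a held at least 2 short forms. Akap11, which rose by less than 2-fold, held 3 short forms and Prkaca, which was not called, held 2, and neither stretch is shown. The stretches of Gnao1, Akap17a, Gng4 and Pde10a are shown, 5′ to 3′ on the strand of the gene, with matches in capitals. They lie at chr19:11198531-11198647 (minus strand) for Gnao1, chr12:21428432-21428479 (minus) for Akap17a, chr17:93433114-93433169 (plus) for Gng4 and chr1:54765748-54765867 (minus) for Pde10a. A match is a description of these letters, not evidence of binding.
Gnao1: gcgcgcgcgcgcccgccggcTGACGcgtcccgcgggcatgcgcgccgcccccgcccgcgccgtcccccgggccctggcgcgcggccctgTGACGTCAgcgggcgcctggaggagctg
Akap17a: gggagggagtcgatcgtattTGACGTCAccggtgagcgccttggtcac
Gng4: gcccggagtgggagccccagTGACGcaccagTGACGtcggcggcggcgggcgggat
Pde10a: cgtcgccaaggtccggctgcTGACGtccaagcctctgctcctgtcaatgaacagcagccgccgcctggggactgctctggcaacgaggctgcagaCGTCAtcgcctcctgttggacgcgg
In Gnao1 the whole element began 121 bases before the start and a further short form 190 bases before it, and in Akap17a the whole element began 212 bases before the start. The short forms of Gng4 began 61 and 50 bases and those of Pde10a 179 and 104 bases before it. Rgs4 held 1 short form, and none was found in the windows of Rgs7, Akap6 and Rapgef4.

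Adenylyl cyclases, the enzymes that make cAMP, were higher in postnatal islets in 6 of 7 cases (background 30.0%), and the other did not pass. Adcy5, the isoform inhibited by inhibitory G proteins and by calcium and known in human islets as a diabetes risk gene, stood at 26.1, 37.7 and 30.8 scaled CPM in postnatal islets and 17.6, 12.5 and 7.74 in fetal islets. The lowest postnatal value lay above the highest fetal one, and the log2 fold change was 1.31 ± 0.27 SE (adjusted p = 0.00378). Adcy9, an isoform with little response to forskolin, had 33.6, 30.8 and 29.7 scaled CPM in the postnatal and 14.8, 13.3 and 11.5 in the fetal libraries. Its groups were far apart and narrow, and it rose by 1.20 ± 0.12 SE on the log2 scale (adjusted p = 1.71e-04).

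The calcium-stimulated isoforms rose as well. Adcy8, which is switched on by calcium and calmodulin, had 1.67, 2.62 and 2.08 scaled CPM in postnatal and 0.522, 0.726 and 0.586 in fetal islets, from 33, 76 and 61 reads in the postnatal and 17, 30 and 19 reads in the fetal libraries. All fetal values were below 1 scaled CPM, so Adcy8 could pass the filter only with all 3 postnatal values at 1 or more. That all postnatal values were higher therefore followed from the filter. The log2 fold change was 0.95 ± 0.17 SE (adjusted p = 0.00187), on a scale that compresses low genes. In edgeR, which adds far less to each value, it was 1.83 for Adcy8. Adcy3, of the same class, averaged 27.4 ± 7.01 scaled CPM in postnatal and 12.4 ± 0.879 in fetal islets (mean ± SD, n = 3 each), a log2 fold change of 1.06. Among the isoforms stimulated by G protein beta-gamma subunits, Adcy4 had 13.9, 25.7 and 19.9 scaled CPM in postnatal and 4.91, 8.45 and 6.35 in fetal libraries, with replicate 1 the lowest of both groups. It rose by 1.45 ± 0.25 SE on the log2 scale (adjusted p = 0.00165). The 6 endothelial markers summed to 543 to 829 scaled CPM after birth and 175 to 272 before it. The 7 mesenchymal markers summed to 6917 to 12264 after birth and 1747 to 2594 before it. Adcy7 rose by 0.85, and Adcy2 did not pass the test, at 5.12 ± 0.883 scaled CPM in postnatal and 4.59 ± 1.33 in fetal islets. The calls of Adcy3, Adcy4, Adcy5, Adcy7 and Adcy9 held under each of the 17 alternatives tried, and that of Adcy8, which is below the stricter filter, under the other 16.

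Phosphodiesterases, which end the cAMP and cGMP signals, moved in both directions, with 10 of 19 tested genes higher and 3 lower (backgrounds 30.0% and 33.1%). The enzymes that break down both cyclic nucleotides were higher in 5 of 7 cases, with 2 not passing and with a median log2 fold change of 1.34, while the cAMP-specific enzymes were split, 4 higher and 3 lower of 8. Pde10a, a dual enzyme with a pair of short forms in the stretch shown, stood at 7.80, 12.9 and 13.1 scaled CPM in postnatal islets against 1.96, 2.27 and 1.36 in fetal islets. Even postnatal replicate 1, the lowest of its group, was far above the fetal libraries, and the log2 fold change was 2.08 ± 0.23 SE (adjusted p = 2.12e-04). Pde1b, a dual enzyme activated by calcium and calmodulin, had 6.43, 9.46 and 12.98 scaled CPM in postnatal and 1.93, 1.84 and 1.11 in fetal libraries. Its groups did not overlap and it rose by 1.98 ± 0.25 SE (adjusted p = 4.03e-04), and by 2.60 in edgeR.

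Pde3b, a cGMP-inhibited enzyme known in beta cells for limiting cAMP and insulin release, had 62.5, 81.9 and 109 scaled CPM in postnatal islets and 33.1, 34.4 and 28.8 in fetal islets. The fetal values were close together and the postnatal ones spread widely above them, with a log2 fold change of 1.34 ± 0.19 SE (adjusted p = 7.02e-04). Pde3a, its homologue in vascular muscle and other tissues, averaged 29.1 ± 9.27 scaled CPM in postnatal and 8.68 ± 2.26 in fetal islets (mean ± SD, n = 3 each; log2 fold change 1.61), and Pde2a, the cGMP-stimulated enzyme, 50.2 ± 13.2 in postnatal and 20.4 ± 4.88 in fetal islets (1.25). In both, postnatal replicate 1 was the lowest of its group. It was also lowest for the summed endothelial markers (543 scaled CPM, against 829 and 778 in postnatal replicates 2 and 3). The same held for the mesenchymal (6917, against 12264 and 10290), smooth muscle (472, against 614 and 553) and beta cell markers (38753, against 42603 and 66946). The cell type behind these values was not tested. The cAMP-specific Pde4b rose by 1.83, Pde7b by 1.70 and Pde8a by 0.96. Pde4a also rose (0.69; adjusted p = 0.0380), but that call ended without fetal replicate 1, 2 or 3 or postnatal replicate 1 or 2, with adjusted p between 0.0580 and 0.115 and a log2 fold change of 0.44 without postnatal replicate 1. Pde4dip rose by 1.09. It encodes a centrosomal scaffold protein that binds a phosphodiesterase, not an enzyme.

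The 3 phosphodiesterases that fell are all cAMP-specific. Pde7a stood at 13.8, 13.8 and 12.5 scaled CPM in postnatal islets against 26.4, 27.4 and 25.7 in fetal islets. Each group was tight, and the log2 fold change was -0.94 ± 0.10 SE (adjusted p = 2.16e-04), opposite in sign to that of its homologue Pde7b. Pde8b, a high-affinity enzyme, had 13.2, 7.71 and 5.70 scaled CPM in postnatal and 16.1, 16.3 and 20.01 in fetal libraries. The highest postnatal value, in replicate 1, was below the lowest fetal value, and Pde8b fell by 0.97 on the log2 scale (adjusted p = 0.0128), a call that missed the threshold without fetal replicate 3 (-0.87; adjusted p = 0.0518). Pde4c averaged 3.47 ± 1.33 in postnatal and 6.83 ± 1.73 in fetal islets (mean ± SD, n = 3 each; log2 fold change -0.83; adjusted p = 0.0204), with the call lost without fetal replicate 3 or postnatal replicate 2 or 3 (adjusted p 0.0575 to 0.0758) and with the replicate number as a block (adjusted p = 0.0524). The 6 that did not pass included Pde4d, at 36.3 ± 3.57 in postnatal and 37.6 ± 1.78 in fetal islets, and Pde1c, at 8.76 ± 0.120 scaled CPM in postnatal and 7.43 ± 0.639 in fetal islets. Pde11a, a dual enzyme, missed the threshold (-0.39; adjusted p = 0.0507) and passed without postnatal replicate 1 (-0.44; adjusted p = 0.0451), with the looser filter (adjusted p = 0.0175) and in edgeR (adjusted p = 0.0499). Pde5a, specific for cGMP, passed without fetal replicate 1 (0.44; adjusted p = 0.0463). Pde5a (0.55; adjusted p = 0.0464) and Pde1c (0.43; adjusted p = 0.0318) also passed with library sizes recomputed without the 20 highest genes.

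**Figure D2:**
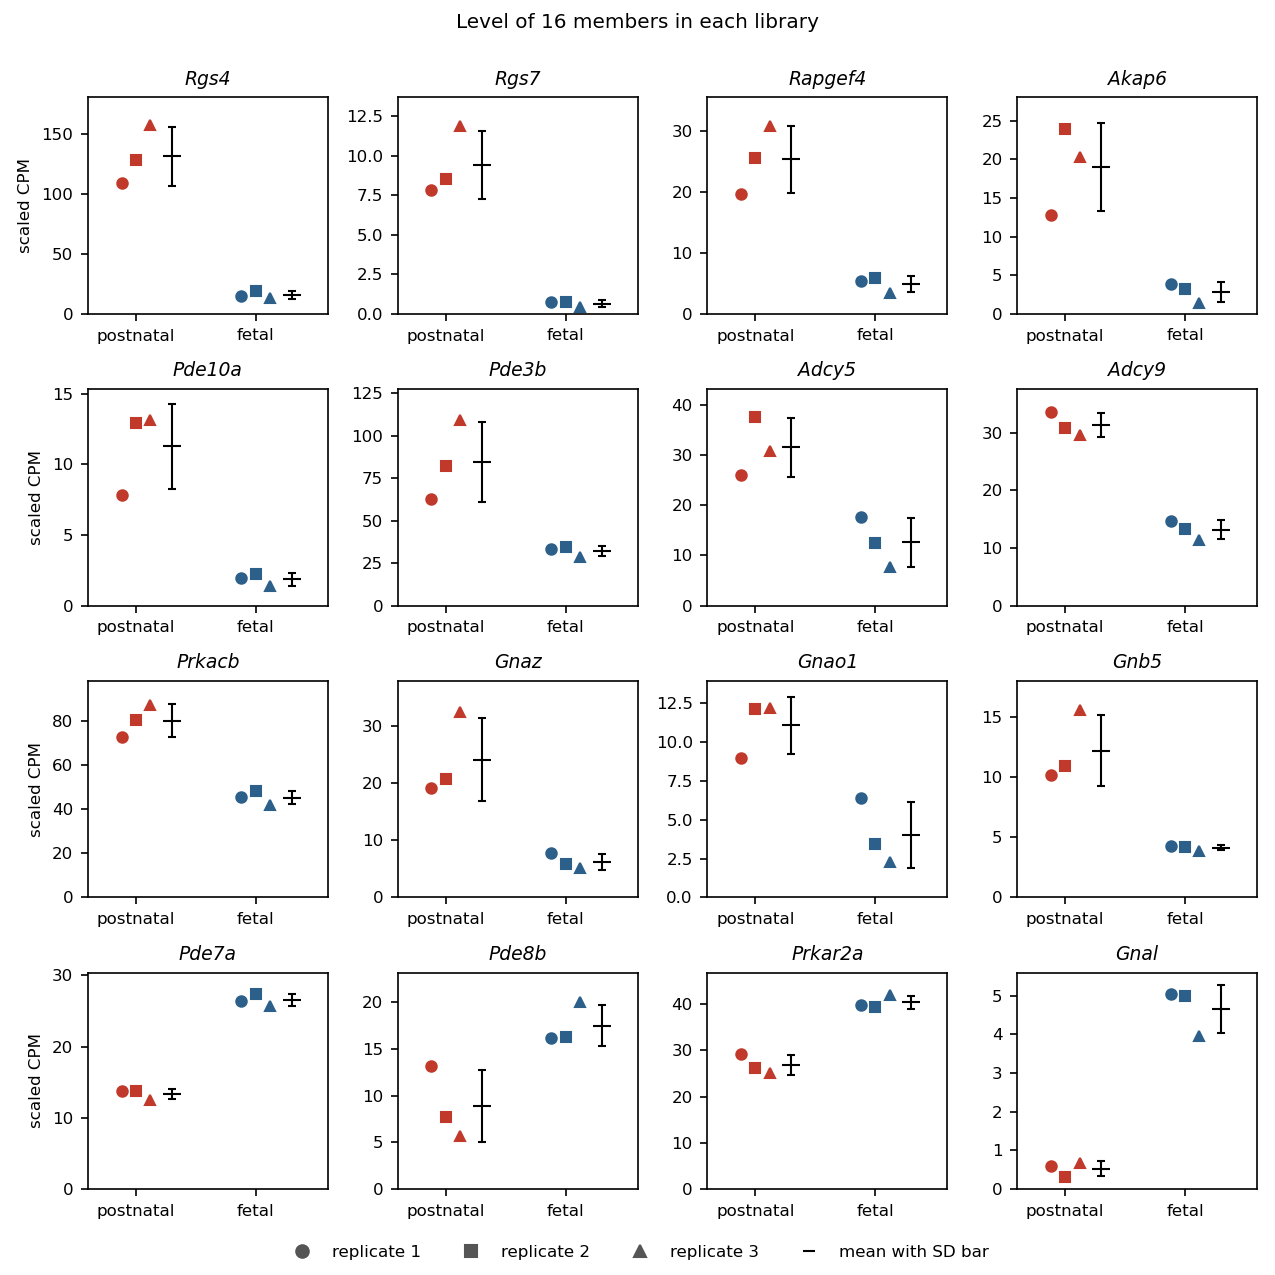
Scaled CPM (y axis, linear, from 0) of 16 members in each of the 3 postnatal and 3 fetal libraries, with markers for replicates 1, 2 and 3 and a black bar for the mean and SD. In the first 3 rows every postnatal point lies above every fetal point, and in the last row, which holds Pde7a, Pde8b, Prkar2a and Gnal, every postnatal point lies below. Rgs7 was below 1 scaled CPM in all fetal libraries and Gnal in all postnatal libraries, so the separation of these genes followed from the filter.

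Of 5 Rap exchange factors, 2 rose, 2 fell and 1 did not pass (backgrounds 30.0% higher and 33.1% lower). Rapgef4, encoding Epac2, which binds cAMP directly and is known in beta cells for enhancing exocytosis, had 19.7, 25.5 and 30.7 scaled CPM in postnatal islets against 5.47, 5.83 and 3.45 in fetal islets. The lowest postnatal value was more than 3 times the highest fetal value, and the log2 fold change was 2.16 ± 0.22 SE (adjusted p = 1.55e-04). Rapgef2, a Rap exchange factor with a PDZ domain, stood at 91.4, 108 and 109 scaled CPM in postnatal and 72.1, 68.5 and 61.4 in fetal islets and rose by 0.60 ± 0.11 SE (adjusted p = 0.00217).

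Rapgef6, a relative of Rapgef2, had 50.4, 53.2 and 50.7 scaled CPM in postnatal and 70.2, 69.7 and 70.5 in fetal islets. Both groups were narrow and did not overlap, and it fell by 0.44 on the log2 scale (adjusted p = 0.00237). Rapgef5 had 40.3, 51.3 and 52.9 scaled CPM in postnatal and 58.8, 71.2 and 68.99 in fetal islets, and fell by 0.46 (adjusted p = 0.0180). Both falls missed the threshold after rescaling without the 20 highest genes (-0.20 and -0.22; adjusted p = 0.102 and 0.212), and that of Rapgef5 also without fetal replicate 2 or 3 (adjusted p = 0.0660 and 0.0614). Rapgef1 did not pass, at 44.6 ± 5.21 scaled CPM in postnatal and 40.5 ± 3.19 in fetal islets.

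Protein kinase A genes did not move in one direction: of 6 subunits 2 rose, 1 fell and 3 did not pass (backgrounds 30.0% higher and 33.1% lower). No change reached 2-fold. Prkacb, encoding the beta form of the catalytic subunit, stood at 72.7, 80.6 and 87.5 scaled CPM in postnatal islets and 45.5, 48.5 and 42.2 in fetal islets. The groups were well separated, with a log2 fold change of 0.81 ± 0.11 SE (adjusted p = 4.51e-04). Prkaca, the alpha form, had 84.8, 91.5 and 104 scaled CPM in postnatal and 85.8, 79.5 and 84.5 in fetal islets, values that overlapped and did not pass (adjusted p = 0.207), except after rescaling without the 20 highest genes (log2 fold change 0.40; adjusted p = 0.0269).

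Regulatory subunits hold the kinase inactive until cAMP binds them. Prkar1a, the type I alpha subunit, stood at 175, 203 and 241 scaled CPM in postnatal and 142, 153 and 159 in fetal islets and rose by 0.43 ± 0.13 SE (adjusted p = 0.0225), but the call ended without fetal replicate 1 or 2 or postnatal replicate 2 or 3 (adjusted p 0.0594 to 0.0690). Prkar2a, the type II alpha subunit, had 29.3, 26.2 and 25.1 scaled CPM in postnatal and 39.8, 39.5 and 42.02 in fetal islets. All postnatal values were lower, and Prkar2a fell by 0.58 on the log2 scale (adjusted p = 0.00161), a call that held under every alternative. The beta forms overlapped between groups: Prkar1b stood at 50.7, 45.7 and 51.6 scaled CPM in postnatal and 48.5, 52.4 and 54.8 in fetal libraries (adjusted p = 0.540). Prkar2b had 22.2, 30.9 and 37.2 scaled CPM in postnatal and 30.4, 27.2 and 32.4 in fetal libraries (adjusted p = 0.920), and its postnatal values lay on both sides of the fetal ones.

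Anchoring proteins, which tether protein kinase A near its substrates, were higher in 8 of 14 cases and lower in 2 (backgrounds 30.0% and 33.1%). Akap6, known for placing the kinase at the nuclear envelope of muscle cells and neurons, had 12.8, 23.95 and 20.3 scaled CPM in postnatal islets against 3.84, 3.24 and 1.45 in fetal islets. The smallest postnatal value was over 3 times the largest fetal one, and the log2 fold change was 2.40 ± 0.31 SE (adjusted p = 4.19e-04), the largest of the family. Akap2 stood at 46.8, 78.2 and 80.7 scaled CPM in postnatal and 24.96, 29.3 and 18.4 in fetal islets, with replicate 1 the lowest postnatal library, and rose by 1.45 ± 0.24 SE (adjusted p = 0.00137). Akap8l, a nuclear protein, rose by 1.33 ± 0.11 SE and Akap13 by 0.90 ± 0.11 SE. Akap17b, Akap17a, Akap12 and Akap11 rose by 0.73, 0.65, 0.52 and 0.48.

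Akap1, the anchor of the outer mitochondrial membrane, fell. It had 43.8, 43.3 and 38.1 scaled CPM in postnatal and 60.5, 59.3 and 67.7 in fetal islets, with no overlap, and a log2 fold change of -0.57 ± 0.10 SE (adjusted p = 0.00191). Akap8, a nuclear anchor, stood at 152, 149 and 142 scaled CPM in postnatal and 171, 171 and 193 in fetal libraries. Its groups did not overlap, and it fell by 0.27 (adjusted p = 0.0406), a call that ended under 10 of 17 alternatives, among them leaving out fetal replicate 1, 2 or 3 or postnatal replicate 2 or 3 (adjusted p 0.0502 to 0.126), edgeR (adjusted p = 0.0672) and the rescaling without the 20 highest genes (log2 fold change -0.03; adjusted p = 0.779). The centrosomal and Golgi anchor Akap9 did not pass, at 327 ± 41.8 scaled CPM in postnatal and 364 ± 29.7 in fetal islets (mean ± SD, n = 3 each). Of the alternatives tried, Akap10 passed under the same rescaling alone (0.34; adjusted p = 0.0203).

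Among G protein alpha subunits, 8 of 13 tested genes rose and 3 fell (backgrounds 30.0% and 33.1%). The inhibitory class, which lowers cAMP, held the largest rise. Gnaz, encoding the pertussis toxin-insensitive Gz, known in mouse beta cells for restraining insulin release, stood at 19.1, 20.8 and 32.5 scaled CPM in postnatal islets and 7.86, 5.78 and 5.09 in fetal islets. The lowest postnatal value was more than 2 times the highest fetal value, and the log2 fold change was 1.78 ± 0.23 SE (adjusted p = 4.20e-04). Gnao1, encoding Go, whose promoter stretch with the whole cAMP response element is printed above, had 8.96, 12.1 and 12.2 scaled CPM in postnatal and 6.42, 3.44 and 2.28 in fetal islets. Fetal replicate 1 was the highest of its group but still below the postnatal range, and Gnao1 rose by 1.33 ± 0.29 SE (adjusted p = 0.00494).

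The Gi subunits went in opposite directions. Gnai2 stood at 229, 302 and 334 scaled CPM in postnatal and 180.4, 218 and 189.8 in fetal islets and rose by 0.54 ± 0.16 SE (adjusted p = 0.0185), with adjusted p of 0.0599 to 0.0619 without fetal replicate 1 or 3 or postnatal replicate 2 or 3. Gnai3 had 163, 156 and 184 scaled CPM in postnatal and 217, 259 and 270.2 in fetal islets. Its postnatal values were all lower, and it fell by 0.56 on the log2 scale (adjusted p = 0.00495), a call kept under each alternative.

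The stimulatory subunits moved in opposite directions. Gnas, encoding the stimulatory alpha subunit, stood at 695, 746 and 894 scaled CPM in postnatal and 619, 579 and 561 in fetal islets. The postnatal values were all higher, by 0.40 ± 0.15 SE on the log2 scale (adjusted p = 0.0425), but the call ended without fetal replicate 1, 2 or 3 or postnatal replicate 2 or 3 (adjusted p 0.0635 to 0.139) and with the replicate number as a block (adjusted p = 0.113). Gnas is an imprinted locus with several promoters and an antisense transcript, and as no strand setting of the counting is stated, reads of these transcripts cannot be told apart. Gnal, encoding the closely related Golf subunit of the olfactory epithelium and striatum, had 0.607, 0.310 and 0.683 scaled CPM in postnatal islets against 5.04, 4.99 and 3.95 in fetal islets, from 12, 9 and 20 reads in the postnatal and 164, 206 and 128 reads in the fetal libraries. It fell by 1.89 on the log2(value + 1) scale (adjusted p = 9.17e-05), the largest fall of all members, and by 3.09 in edgeR, where low values are less compressed.

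Alpha subunits of the Gq class, which act on phospholipase C, also split. Gna14 stood at 17.1, 11.5 and 7.79 scaled CPM in postnatal and 4.21, 2.98 and 3.42 in fetal islets. It was highest in postnatal replicate 1, where the acinar share of the reads was also highest (33.6%, against 18.8% and 16.9% in postnatal replicates 2 and 3). In the fetal libraries it was highest in replicate 1, where the acinar share was lowest (5.65%, against 7.48% and 6.96% in replicates 2 and 3). Gna14 rose by 1.48 ± 0.26 SE (adjusted p = 0.00176). Gnaq had 40.04, 42.4 and 46.9 scaled CPM in postnatal and 33.8, 33.3 and 34.1 in fetal islets and rose by 0.34 ± 0.10 SE (adjusted p = 0.0156), with adjusted p of 0.0589 without fetal replicate 2 and 0.0560 without postnatal replicate 3. Gna11 averaged 24.5 ± 1.57 in postnatal and 32.6 ± 0.888 in fetal islets (mean ± SD, n = 3 each) and fell by 0.40 (adjusted p = 0.00799), a fall that did not pass after the rescaling without the 20 highest genes (-0.17; adjusted p = 0.164).

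Of the remaining alpha subunits, Gna12 rose by 0.39, and Gna13 of the same class did not pass (12.7 ± 1.01 scaled CPM in postnatal and 10.5 ± 0.490 in fetal islets), except under the rescaling without the 20 highest genes (0.47; adjusted p = 0.0236). Gnat3, the gustducin subunit of taste cells, rose by 0.79 (adjusted p = 0.0312), at 6.43, 4.30 and 10.4 scaled CPM in postnatal and 3.59, 3.29 and 3.45 in fetal islets. Without postnatal replicate 3 its log2 fold change was 0.50, and its call ended there and without fetal replicate 1, 2 or 3 (adjusted p 0.0657 to 0.0791).

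Of 5 beta subunits, 2 rose, 1 fell and 2 did not pass (backgrounds 30.0% higher and 33.1% lower). Gnb5, the outlying beta subunit that folds with the R7 class of RGS proteins in place of a gamma subunit, stood at 10.2, 10.9 and 15.6 scaled CPM in postnatal islets and 4.30, 4.21 and 3.88 in fetal islets. The fetal values were nearly equal, all postnatal values were at least 2 times as high, and the log2 fold change was 1.34 ± 0.17 SE (adjusted p = 4.39e-04). Gnb4 had 13.5, 21.96 and 21.3 scaled CPM in postnatal and 8.04, 10.04 and 7.06 in fetal libraries and rose by 1.07 ± 0.21 SE (adjusted p = 0.00300). Gnb2 stood at 130.0, 132 and 136 scaled CPM in postnatal and 183, 197 and 202 in fetal libraries. It fell by 0.55 on the log2 scale (adjusted p = 0.00134), with no overlap between the groups. Gnb1 did not pass, at 170.5 ± 13.02 scaled CPM in postnatal and 196 ± 3.71 in fetal islets, nor did Gnb3, at 1.34 ± 0.405 in postnatal and 1.02 ± 0.325 in fetal islets.

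Gamma subunits, the small lipid-anchored partners of beta subunits, gave 2 rises and 2 falls among 8 tested (backgrounds 30.0% and 33.1%). Their median log2 fold change was -0.06, beside -0.03 for all genes, and 0.15 after rescaling without the 20 highest genes, beside 0.20 for all genes. Gng4 stood at 2.83, 5.27 and 6.21 scaled CPM in postnatal and 2.24, 1.72 and 0.678 in fetal islets and rose by 1.18 ± 0.31 SE (adjusted p = 0.0120). Gng11, a subunit found in endothelium and other tissues, had 28.7, 43.4 and 38.1 scaled CPM in postnatal and 15.996, 26.8 and 23.8 in fetal islets, and it rose by 0.71 ± 0.22 SE (adjusted p = 0.0217). In these libraries all 6 endothelial and 6 of 7 mesenchymal markers rose. The call of Gng11 ended without fetal replicate 1 or postnatal replicate 2 or 3 (adjusted p 0.0562 to 0.0764).

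Gng5 had 3.19, 2.82 and 3.005 scaled CPM in postnatal and 4.39, 5.81 and 6.41 in fetal islets, and fell by 0.69 on the log2 scale (adjusted p = 0.00662), with all postnatal values lower. Gng13, known from taste and retinal cells, stood at 2.68, 1.38 and 1.30 scaled CPM in postnatal and 2.86, 2.73 and 4.04 in fetal libraries. It fell by 0.62 (adjusted p = 0.0452), but its adjusted p was 0.0606 to 0.149 without fetal replicate 1, 2 or 3 or postnatal replicate 2 or 3 and 0.0694 in edgeR. Gng10 did not pass, at 64.9 ± 2.77 in postnatal and 69.9 ± 2.92 in fetal islets.

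RGS proteins, which shorten G protein signals, held the 2 largest rises of all members on the log2(value + 1) scale. With a pseudocount of 5 Rgs4 was still the largest, but Rgs7 (1.34) was below Rapgef4 and Akap6 (1.60 each). Among 17 tested, 9 rose and 1 fell (backgrounds 30.0% and 33.1%), with 7 not passing. Without postnatal replicate 1 and fetal replicate 2 together 14 rose (background 29.3%). Rgs4, of the R4 class, which acts on inhibitory and Gq alpha subunits and is known in mouse beta cells for damping muscarinic signals, stood at 109, 128 and 158 scaled CPM in postnatal islets against 14.7, 19.4 and 12.9 in fetal islets. The lowest postnatal library was over 5 times the highest fetal library, and the log2 fold change was 2.99 ± 0.18 SE (adjusted p = 2.45e-05). Rgs7, of the R7 class, had 7.85, 8.57 and 11.9 scaled CPM in postnatal and 0.768, 0.774 and 0.432 in fetal islets, from 155, 249 and 348 reads in the postnatal and 25, 32 and 14 reads in the fetal libraries. It rose by 2.64 ± 0.19 SE on the log2(value + 1) scale (adjusted p = 4.31e-05) and by 3.87 in edgeR.

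In the R7 class, which pairs with Gnb5 and acts on inhibitory alpha subunits, the 3 tested genes were higher, and Rgs11 is not analysed here. Beside Rgs7, Rgs6 averaged 4.77 ± 1.32 scaled CPM in postnatal and 0.760 ± 0.127 in fetal islets (mean ± SD, n = 3 each; 1.69), and Rgs9, known from retina and striatum, averaged 5.95 ± 1.26 in postnatal and 1.62 ± 0.598 in fetal islets (1.42). Rgs7bp, the lipid-anchored protein that holds R7 complexes at the membrane, rose by 0.59 ± 0.16 SE (adjusted p = 0.0114), and Gpr158, an orphan receptor that binds Rgs7, rose by 3.03 ± 0.26 SE (adjusted p = 8.15e-05). With Gnb5, these 6 genes were higher in all 3 postnatal libraries than in any fetal library, as were 33.1% of all genes tested. Rgs6, Rgs7 and Rgs7bp were below 1 scaled CPM in every fetal library. They could pass the filter only with all 3 postnatal values at 1 or more, so their separation followed from the filter. Gpr158 was named because its rise was the largest of its list, so its separation is not a test. In edgeR, where low values are less compressed, the log2 fold change was 2.68 for Rgs6 and 1.43 for Rgs7bp. The grouping is a textbook one made after the values were seen, and no test was applied to it.

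Other R4 members differed among themselves. Rgs16, known in mouse as a gene of developing endocrine pancreas, stood at 6.99, 20.5 and 27.4 scaled CPM in postnatal and 3.75, 5.88 and 4.35 in fetal islets. Postnatal replicate 1 was close to the fetal range and the other two were far above it, with a log2 fold change of 1.60 ± 0.43 SE (adjusted p = 0.0129), and 2.29 without postnatal replicate 1 and fetal replicate 2. Rgs2, which prefers the Gq alpha subunit, had 34.5, 56.6 and 66.2 scaled CPM in postnatal and 56.2, 53.97 and 48.1 in fetal islets. Its groups overlapped and it did not pass (adjusted p = 0.839). Rgs8 rose by 1.58 (3.04 in edgeR), while Rgs3 did not pass, at 39.4 ± 5.60 scaled CPM in postnatal and 32.03 ± 3.46 in fetal islets, but passed without postnatal replicate 1 (0.40; adjusted p = 0.0230) and after rescaling without the 20 highest genes (0.52; adjusted p = 0.0356).

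Rgs1, known from lymphocytes, stood at 1.67, 6.68 and 7.41 scaled CPM in postnatal and 2.39, 2.08 and 1.17 in fetal islets and did not pass (adjusted p = 0.0802). Without postnatal replicate 1 its log2 fold change was 1.50 (adjusted p = 6.57e-04), and with all libraries it passed in edgeR (adjusted p = 0.0410), in DESeq2 (adjusted p = 0.00938) and with the labelled week as a covariate (adjusted p = 0.0141). The 8 leukocyte markers summed to 69.5, 232 and 108 scaled CPM in the postnatal and 68.9, 105 and 40.0 in the fetal libraries. Rgs18, known from platelets, had 0.861, 1.58 and 2.19 in postnatal and 0.952, 2.81 and 0.863 in fetal islets. It was highest in fetal replicate 2, where the 4 platelet markers were also highest (19.6 scaled CPM, against 4.93 to 13.8 in the other libraries). The same library was highest for the summed erythroid (5223 scaled CPM) and liver markers (6330 scaled CPM), and the cell type behind Rgs18 was not tested.

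In the RZ class, which acts on Gz and other inhibitory subunits, Rgs17 rose by 1.39 ± 0.21 SE (adjusted p = 8.21e-04). Rgs19 of the same class stood at 3.44, 5.54 and 4.47 scaled CPM in postnatal and 6.36, 6.29 and 7.18 in fetal islets and fell by 0.49 (adjusted p = 0.0380). That fall ended under 11 of 17 alternatives, among them leaving out fetal replicate 1, 2 or 3 or postnatal replicate 1 or 3 (adjusted p 0.0705 to 0.114), edgeR (0.0714) and DESeq2 (0.0571). In the R12 class Rgs10, Rgs12 and Rgs14 did not pass, with limma adjusted p of 0.0734, 0.212 and 0.101. Without postnatal replicate 1, Rgs10 (0.89; adjusted p = 0.0203) and Rgs14 (0.77; adjusted p = 0.0263) passed, and Rgs10 also did without fetal replicate 2 (0.92; adjusted p = 0.0200). With all libraries Rgs10 passed in DESeq2 (0.78; adjusted p = 0.0428) and under the rescaling without the 20 highest genes (0.87; adjusted p = 0.0419). Rgs22, whose role is little known, rose by 1.16.

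Ratios of related members within a library do not depend on how libraries were scaled, and were compared for 11 pairs. They are given as log2 values for replicates 1, 2 and 3 and without a test. The size of a ratio includes the unequal lengths of the transcripts, so only its difference between groups is compared. Rgs4 over Rgs2 was 1.66, 1.18 and 1.25 in postnatal and -1.93, -1.48 and -1.90 in fetal islets, a difference of 3.13. Gnb5 over Gnb1 was -3.94, -4.01 and -3.53 in postnatal and -5.54, -5.53 and -5.63 in fetal islets, a difference of 1.74. These ratios were higher in every postnatal library than in any fetal library.

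The same held for Gnao1 over Gnai2 (difference 1.03), Gnaq over Gna11 (0.77), Adcy8 over Adcy3 (0.67) and Prkacb over Prkaca (0.66). For Gnao1 over Gnai2 the margin was small, with -4.78 in postnatal replicate 3 and -4.81 in fetal replicate 1. Gnal over Gnas was -10.16, -11.23 and -10.35 in postnatal and -6.94, -6.86 and -7.15 in fetal islets, a difference of -3.60. Pde8b over Pde8a was -1.74, -2.53 and -3.04 in postnatal and -0.50, -0.53 and -0.12 in fetal islets, a difference of -2.05. Prkar1b over Prkar1a differed by -0.51, and in these 3 pairs every postnatal ratio was lower. The groups overlapped for Pde3b over Pde3a and for Prkar2b over Prkar2a. In the second pair postnatal replicate 1 lay within the fetal range and the other two above it.

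**Figure D3:**
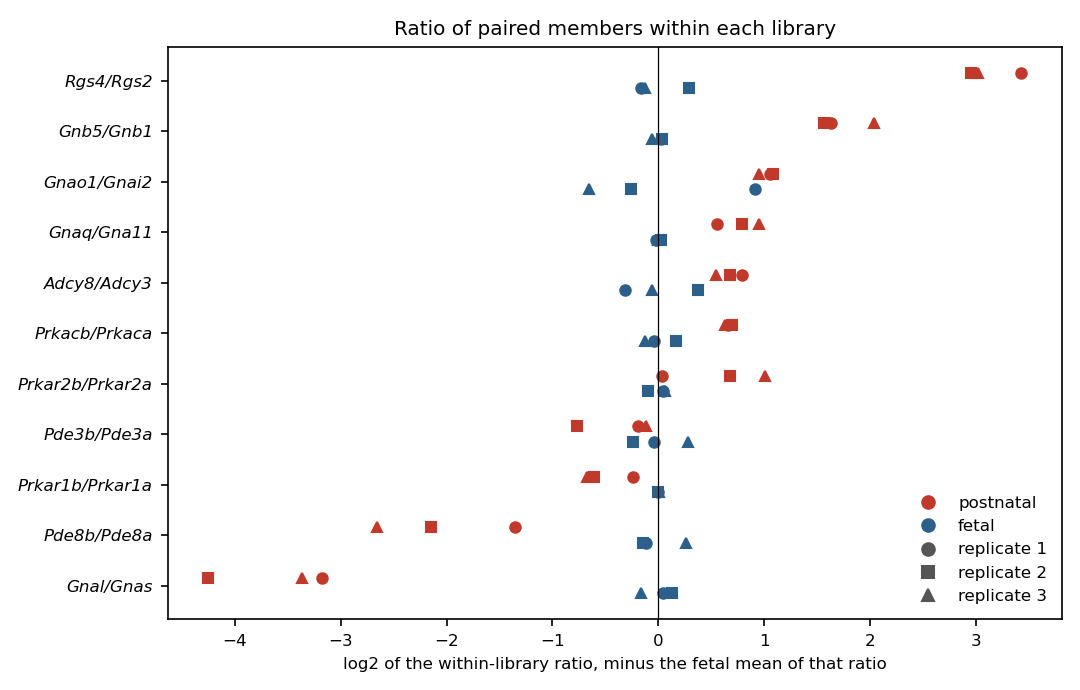
Log2 ratio of 11 pairs of members within each library, minus the mean of the fetal libraries (x axis), with postnatal libraries in red, fetal libraries in blue and a marker shape for each replicate. The postnatal points lie right of the fetal points for 6 pairs, from Rgs4 over Rgs2 to Prkacb over Prkaca, and left of them for Gnal over Gnas, Pde8b over Pde8a and Prkar1b over Prkar1a.

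The postnatal libraries also differed among themselves in a shared way. In 38 of the 94 members tested (40.4%, against 21.0% of all genes tested) the value was lowest in the library labelled week 2, higher in that labelled week 3 and highest in that labelled week 4, and in 11 (11.7%, against 22.5%) the order was the opposite. Rgs4, Rgs7, Rapgef4, Pde3b, Prkacb, Gnaz and Gnb5 are among the 38, and Pde8b is among the 11. Postnatal replicate 1 was the lowest of its group in 71.3% of members, against 39.5% of all genes, and among genes called higher in 81.6% of members, against 67.1% of all genes. In the same order the share of beta cell markers was 2.62%, 4.39% and 6.64% of the reads and that of acinar markers 33.6%, 18.8% and 16.9%. With 1 library per labelled week, age, cell mix and library cannot be told apart.

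The 15 members below the filter included most of the phototransduction genes among the members. Pde6a, Pde6b, Pde6c, Pde6g and Pde6h, subunits of the photoreceptor phosphodiesterase or its inhibitors, and Gnat1 and Gnat2, the transducins, were at most 1.14 scaled CPM in any library. The highest value among the 15 was 1.23, for Gng8 in postnatal replicate 3. Akap4, an anchor of the sperm tail, had 0 reads in all libraries, which allows at most 0.152 scaled CPM in a postnatal and 0.0925 in a fetal library, counting error only. Gng7, Gng14, Rgs9bp, Rgs13, Rgs20 and Akap14 were the others.

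The receptors upstream of the members were taken from lists of other pathway genes, of which 114 were in the table and 85 were tested. Of the 85, 45 rose and 8 fell, beside the 30.0% and 33.1% of all genes tested. Receptors that raise cAMP were higher in 9 of 12 cases, with a median log2 fold change of 1.78. Gipr, the receptor of the incretin GIP, stood at 87.1, 107 and 136 scaled CPM in postnatal islets against 20.4, 18.7 and 13.9 in fetal islets. All postnatal values lay above all fetal values, and the log2 fold change was 2.56 ± 0.19 SE (adjusted p = 4.82e-05), beside 3.78 for Glp1r, the receptor of GLP-1. Gipr and Glp1r were named as the largest rises of their list, so the separation is not a test. The 1 that fell was Vipr2, a receptor of vasoactive intestinal peptide (8.06 ± 1.55 scaled CPM in postnatal and 13.1 ± 3.14 in fetal islets; adjusted p = 0.0301), with overlapping groups. It did not pass after rescaling without the 20 highest genes (adjusted p = 0.148) or without fetal replicate 1 or 3 or postnatal replicate 1 or 2 (adjusted p 0.0654 to 0.107). After that rescaling 10 of the 12 rose, with a median of 1.99 beside 0.20 for all genes.

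Receptors that lower cAMP were higher in 7 of 17 cases and lower in 1 (backgrounds 30.0% and 33.1%). Npy1r, a receptor of neuropeptide Y, had 17.8, 32.1 and 28.4 scaled CPM in postnatal and 1.04, 1.67 and 0.462 in fetal islets (3.72 ± 0.28 SE; adjusted p = 4.87e-05). Adora1, an adenosine receptor, had 14.2, 14.8 and 12.4 scaled CPM in postnatal and 0.921, 0.726 and 0.277 in fetal islets (3.19 ± 0.19 SE; adjusted p = 2.26e-05). Both were far above the fetal range in every postnatal library, but they were named as the largest rises of their list, so this is not a test. Adora1 was below 1 scaled CPM in every fetal library, so its separation also followed from the filter. Sstr1, a somatostatin receptor, was the one that fell, at 0.911, 1.72 and 1.60 scaled CPM in postnatal and 10.4, 4.21 and 5.64 in fetal islets (-1.62 ± 0.30 SE; adjusted p = 0.00213). Other somatostatin receptors did not fall: Sstr3 rose by 2.14 (adjusted p = 3.65e-04) and Sstr5 by 1.35 (adjusted p = 0.00310). Sstr2 did not pass (adjusted p = 0.560), and Sstr4 was below the filter. Receptors of the Gq class were higher in 11 of 15 cases, among them Casr, the calcium-sensing receptor (3.31), and Avpr1b, a vasopressin receptor, at 3.49, 2.72 and 5.91 scaled CPM in postnatal and 0.0307, 0.145 and 0.0617 in fetal islets (2.18). The 1 that fell was Cckbr, at 0, 0.172 and 0 scaled CPM in postnatal and 1.60, 1.11 and 1.14 in fetal islets.

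Of 22 accessory genes of protein kinase A, cAMP and Rap tested, 12 rose and 2 fell. Sik1 and Sik2, kinases that are themselves targets of protein kinase A and hold back CREB coactivators, rose by 1.60 ± 0.20 SE and 1.42 ± 0.13 SE. Pkib, an inhibitor of the catalytic subunit, averaged 3.02 ± 0.651 scaled CPM in postnatal and 9.57 ± 1.33 in fetal islets and fell by 1.40 (adjusted p = 3.81e-04), and Rap1gap, which switches Rap1 off, averaged 101 ± 38.7 scaled CPM in postnatal and 258 ± 30.2 in fetal islets and fell by 1.41 (adjusted p = 0.00224). Of 19 accessory and desensitisation genes of G proteins, 6 rose and 3 fell, beside 30.0% and 33.1% of all genes tested, with a median log2 fold change of 0.01 beside -0.03. Gpsm1 rose by 1.60 ± 0.26 SE, whereas its relative Gpsm2, which binds inhibitory alpha subunits and orients the mitotic spindle, fell to 11.99 ± 0.646 scaled CPM in postnatal islets, against 49.6 ± 5.43 in fetal islets (-1.96 ± 0.11 SE; adjusted p = 2.26e-05). Gnb1l and Grk6 were the others that fell, by 0.80 and 0.38, and Grk6 did not pass after rescaling without the 20 highest genes (-0.14; adjusted p = 0.299).

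**Figure D4:**
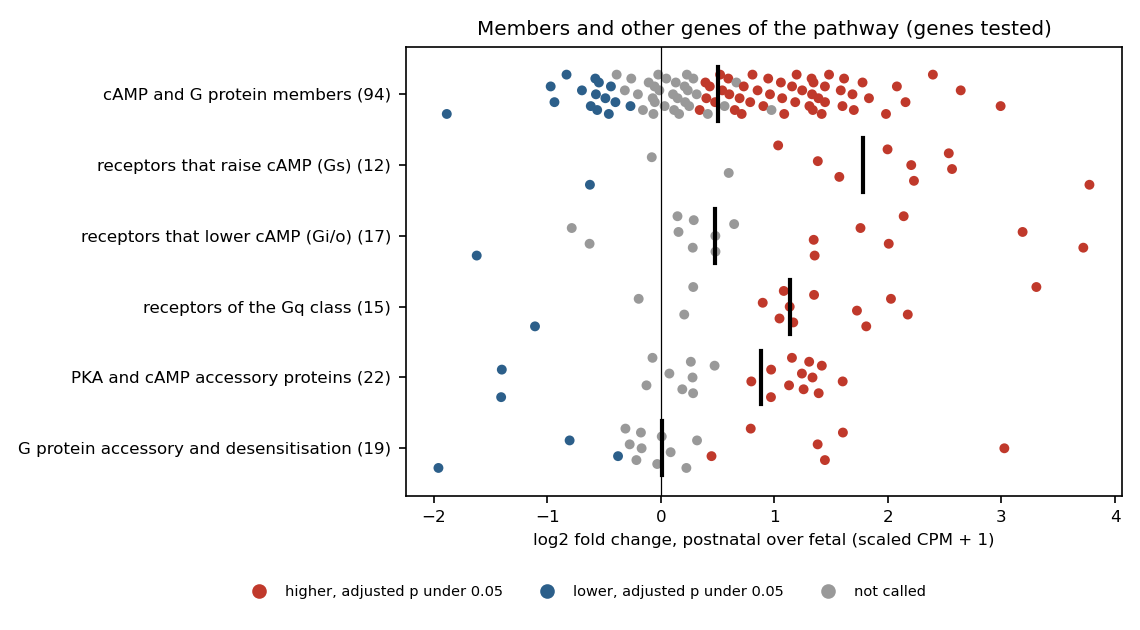
Log2 fold change, postnatal over fetal, on the scale of scaled CPM + 1 (x axis), of each tested member and of each tested gene in 5 lists of receptors and accessory genes, with a black line at the median of each row. The medians run from 1.78 for receptors that raise cAMP to 0.01 for accessory and desensitisation genes, with the members at 0.50.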

How the data were processed

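The authors deposited 1 table of normalised expression for the 6 libraries, with no unit named, read here as a signal: reads divided by an adjusted library size, as in CPM (scaled CPM). Every value was a whole number of reads within 0.001 reads (100%). Per the submitters' processing notes, TopHat2 2.0.8b and edgeR 3.30.3 were used, with no step named. For the genome build, annotation, read counter and strand setting nothing is given in the sources used here. Per the labels' protocols, the libraries were made from total RNA depleted of ribosomal RNA with a stranded kit. The row with no gene name, at most 3.19e-05% of reads, was left out. Near-identical paralogues and overlapping genes may share reads.

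Libraries were grouped by title. Genes that reached 1 scaled CPM in 3 or more libraries were tested with limma 3.58.1 (R 4.3.3, intensity trend) on log2(value + 1), postnatal minus fetal, with Benjamini-Hochberg adjustment. This scale understates the change of low genes. On the recovered reads, edgeR 4.0.16 called 4060 genes higher and 4068 lower, and DESeq2 1.42.0 called 4206 and 4160, with 18 adjusted p not given. Read counts limit precision through counting error only, and the floor used is 3 reads. The steps were tested on simulated reads in which few genes changed and all shared a common spread. In these data 63.1% of genes were called, so the simulation does not cover changes this wide. Other settings were pseudocounts of 0.1 and 5, other filters, 2 other scalings, the replicate block, the labelled week and leaving out libraries.

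The members, the marker lists and the pathway lists (130 entries, 117 matched, 114 distinct genes that are not members) were chosen with earlier results of these data known. Members given by library are those of a fixed set of 25 genes, of which 22 were in the table, and the largest called changes within each family. Other members are given by means, ranges or counts, except Gnat3, Rgs1 and Rgs18, which were given by library after their values were seen. Of each pathway list the 2 largest called rises and falls could be named. Grk6, Sstr2, Sstr3, Sstr4 and Sstr5 were added after their values were seen.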

Additional observations from a re-analysis of the deposited data

How the results depend on the processing

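Of the 64 members called, 49 kept their call under every alternative in which they were tested, 42 of them higher and 7 lower, and 15 lost it under some. Of the 49, 41 were tested under all 17 alternatives (36 higher and 5 lower), and 8 were below the stricter filter and were tested under 16. The count of members that fell was 9 after rescaling without the 20 highest genes, beside 24.9% of all genes. Leaving out each library in turn gave 43 to 52 members higher and 9 to 15 lower, and 44 to 50 pathway genes higher and 8 to 9 lower. The shares of all genes moved with these settings, from 25.2% to 31.0% higher and from 28.1% to 34.6% lower. With the replicate number as a block, 49 members were higher and 11 lower, beside 27.6% and 29.9% of all genes, and 46 pathway genes were higher and 8 lower. Rgs10 passed with the block (0.67; adjusted p = 0.0429). Whether equal numbers mark paired libraries is not stated. The deviations of same-numbered libraries from their group means correlated at -0.21, 0.10 and -0.25 for replicates 1, 2 and 3. With 3 libraries a group these values cannot decide it.

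Directions turned only in members that had not passed. After rescaling without the 20 highest genes the log2 fold change was 0.082 for Akap9, 0.037 for Gnb1, 0.18 for Gng3, 0.13 for Gng10, 0.18 for Pde4d, 0.16 for Pde6d, 0.21 for Prkar2b, 0.16 for Prkar1b, 0.18 for Rgs2. In edgeR it was 0.031 for Gng3, 0.050 for Prkar2b, 0.036 for Rgs2, and in DESeq2 0.037 for Gng3, 0.053 for Prkar2b, 0.039 for Rgs2. Without fetal replicate 2 and postnatal replicate 1 together it was 0.034 for Gng3, 0.17 for Pde9a, 0.11 for Prkar2b, 0.23 for Rgs2. Leaving out each library in turn, or these 2 together, gave log2 fold changes on both sides of 0 for some members: Adcy2 -0.043 to 0.31, Akap7 -0.056 to 0.14, Gng3 -0.090 to 0.049, Pde6d -0.13 to 0.011, Pde9a -0.47 to 0.17, Prkar2b -0.19 to 0.17, Rgs2 -0.25 to 0.23, Rgs18 -0.13 to 0.59. The cause was not tested. With 3 libraries a group and 1 library for each labelled week, the spread between postnatal libraries could not be split by age, and members below the filter of 1 scaled CPM were not tested.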
